A study of Mus musculus with 3 samples.

Results

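Lag3 and 6 further immune checkpoint or leukocyte surface genes, Havcr2, Cd274, Cd86, Cd84, Cd48 and Cd52, were followed in hippocampal RNA of 10-month-old mice. The genes were matched by name in a table of 54532 genes, 22046 of them protein-coding, and all 7 were found. Lag3 was selected on its high value in the PS19 library, and the others were chosen with the values known, so the PS19 levels are a description and carry no test. The samples were 1 library each of WT mice, of PS19 mice, and of PS19 mice that also have the Zbp1+- genotype, all on a C57BL/6 background. Mice of the PS19 line express a mutant human tau transgene from the mouse Prnp promoter, which is active mainly in neurons, and develop tau pathology. Both transgenic groups carry it, and by its label the last also has a single intact allele of Zbp1, whose protein senses nucleic acids in the Z form. The labels used here do not give the sex or number of the animals, or whether animals were pooled. With 1 library per genotype no difference below has a replicate check, and every interval covers counting error only. Values of the libraries always stand in the order WT, PS19, PS19 Zbp1+-.

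Checkpoint molecules are surface proteins that raise or dampen the activity of immune cells on contact. Lag3 is a CD4-like inhibitory receptor that binds MHC class II, Havcr2 (TIM-3) is an inhibitory receptor of T cells and myeloid cells, and Cd274 (PD-L1) is the ligand of the inhibitory receptor Pdcd1. Cd86 is a B7 ligand of Cd28 and Ctla4, Cd84 and Cd48 are SLAM family receptors, and Cd52 is a short glycoprotein anchored in the membrane by a lipid. In the brain such genes are known chiefly from microglia, the resident macrophages, and from the few lymphocytes that enter the tissue.

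Promoters are shown for Havcr2, Cd274, Cd84 and Cd48, since the levels below moved together and these 4 of the 7 genes were matched by symbol in RefSeq (GRCm38.p6). Lag3, Cd86 and Cd52 were not matched. Each is the 250 bases before the RefSeq start, 5′ to 3′ on the plus strand, and capitals mark a match to any of 3 motifs.
Havcr2, chr11:46454681-46454930: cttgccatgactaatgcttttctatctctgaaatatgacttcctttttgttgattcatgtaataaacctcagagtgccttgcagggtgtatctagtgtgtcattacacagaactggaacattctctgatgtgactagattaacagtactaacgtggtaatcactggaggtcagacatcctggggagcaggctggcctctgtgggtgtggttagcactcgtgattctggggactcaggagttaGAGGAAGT
Cd274, chr19:29367188-29367437: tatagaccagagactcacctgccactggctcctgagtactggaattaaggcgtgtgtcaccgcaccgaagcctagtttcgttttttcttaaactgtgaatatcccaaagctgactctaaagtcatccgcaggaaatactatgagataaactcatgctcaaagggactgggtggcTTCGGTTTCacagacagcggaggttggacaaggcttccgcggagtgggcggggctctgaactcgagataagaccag
Cd84, chr1:171839447-171839696: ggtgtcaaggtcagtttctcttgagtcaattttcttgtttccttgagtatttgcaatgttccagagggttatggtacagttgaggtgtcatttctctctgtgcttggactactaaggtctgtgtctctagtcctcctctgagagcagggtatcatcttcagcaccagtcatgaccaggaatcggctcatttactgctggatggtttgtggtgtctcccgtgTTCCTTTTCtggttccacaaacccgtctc
Cd48, chr1:171681742-171681991: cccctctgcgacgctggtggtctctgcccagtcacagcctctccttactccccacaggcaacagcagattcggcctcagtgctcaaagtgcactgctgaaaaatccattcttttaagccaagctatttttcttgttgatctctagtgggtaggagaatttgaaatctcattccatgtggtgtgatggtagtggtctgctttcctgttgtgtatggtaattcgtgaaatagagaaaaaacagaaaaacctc
Both strands were searched for a core of the interferon-stimulated response element (GAAANNGAA), for the interferon gamma activated site (TTCNNNGAA) and for the motif of the myeloid factor PU.1 (GAGGAAGT). No matches overlapped. Havcr2 held the PU.1 letters in the last 8 bases before its start. Cd274 and Cd84 each held the response element core on the minus strand, beginning 76 and 29 bases before the start, and Cd48 held no match. Of 32851 RefSeq windows of this length, 7.13% held the response element core, 7.02% the activated site and 2.44% the PU.1 letters. The response element was first searched with a further A at its end, which was in 2.98% of windows and in 0 of these 4, and the shorter core was chosen after that result was seen. An NF-kB motif (GGGAA and CC with any 3 bases between them) was also searched first, and was in 4.94% of windows and in 0 of these 4. A match describes the letters only.

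The deposited values are FPKM, which relate reads to gene length and library size, and from them whole reads were recovered. Reads per library lay between 16400328 and 17109734. Zbp1, the targeted gene, had 5, 91 and 0 reads, and the exact 95% Poisson interval of its FPKM reached up to 0.066 in the last library. Whether that library has 1 intact allele is not settled by these reads. Xist had 11062, 13350 and 0 reads and the Y-linked Ddx3y had 0, 0 and 711, so PS19 Zbp1+- also differs from the other libraries in the sex of its source. Weak genes were absent more often from that library. Of 357 genes that had 8 to 12 reads in each of the others, 16.0% had none there (exact Clopper-Pearson 95% interval 12.3% to 20.2%), while the matching share was 0.41% for PS19 and 2.14% for WT. The choroid plexus marker Ttr had 63846, 38820 and 136 reads. Genotype, sex and dissection cannot be told apart in comparisons with this library.

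The first question of the design is how the PS19 hippocampus differs from WT. Each of the 7 genes was at its highest in PS19, and its FPKM there lay above its counting interval in both other libraries. Lag3 was the most abundant by FPKM in every library. The other 6 genes were weak in WT and in PS19 Zbp1+-, below an FPKM of 1.

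**Figure D1:**
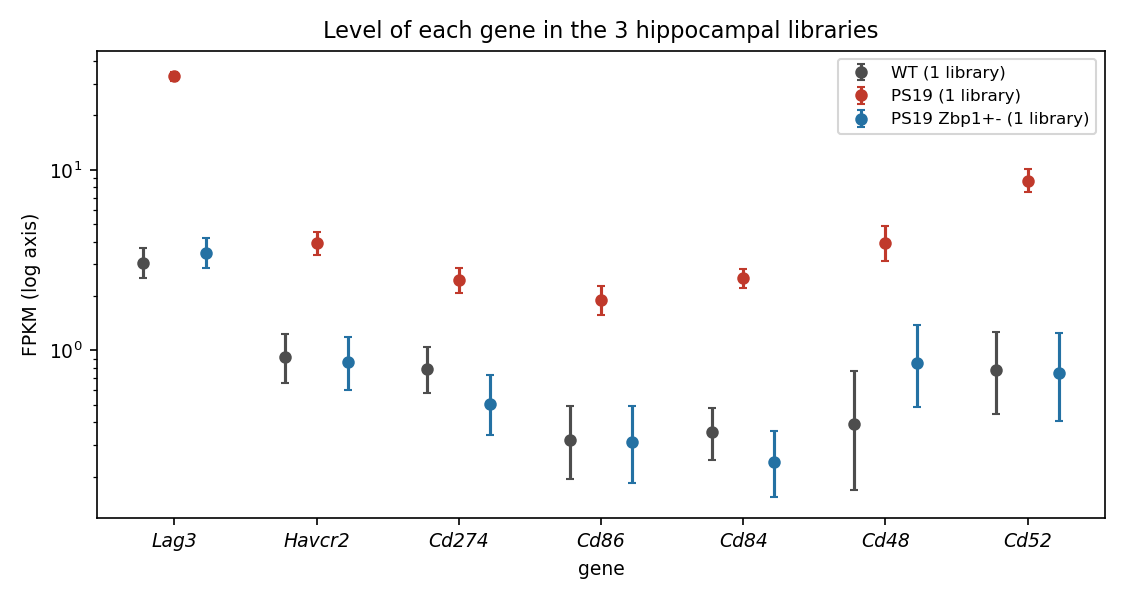
FPKM of the 7 genes (log axis) in the WT, PS19 and PS19 Zbp1+- libraries, 1 point per library, with exact 95% Poisson intervals that cover counting error only. Lag3 stands at 32.9 in PS19 against 3.05 and 3.48, and each gene has its highest point in PS19.

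Lag3 (ENSMUSG00000030124; minus strand of GRCm38 chromosome 6, 124904361 to 124911705) had FPKM values of 3.05, 32.9 and 3.48 from 111, 1200 and 116 reads. The PS19 value stood far above the other libraries, whose counting intervals, 2.51 to 3.67 and 2.87 to 4.17, overlapped. Per library size, PS19 held 10.8 times the Lag3 reads of WT (exact 95% interval 8.88 to 13.2). PS19 Zbp1+- held 9.47-fold fewer than PS19 (7.82 to 11.6).

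Havcr2 (plus strand of chromosome 11, 46454935 to 46481255), the other inhibitory receptor, had FPKM values of 0.916, 3.93 and 0.859 from 43, 185 and 37 reads. WT and PS19 Zbp1+- overlapped within counting error, and PS19 lay above both. PS19 exceeded WT 4.29-fold in reads (3.07 to 6.13), and PS19 Zbp1+- was 4.58-fold below PS19 (3.2 to 6.7).

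Of the ligands, Cd274 (plus strand of chromosome 19, 29367455 to 29388095) had FPKM values of 0.784, 2.44 and 0.506 from 49, 153 and 29 reads. PS19 exceeded WT 3.12-fold (2.25 to 4.39), the smallest ratio among the 7 genes, and PS19 Zbp1+- was 4.83-fold below PS19 (3.23 to 7.45). Cd86 (minus strand of chromosome 16, 36603869 to 36666081), the co-stimulatory B7 ligand, had FPKM values of 0.317, 1.9 and 0.311 from 20, 120 and 18 reads. WT and PS19 Zbp1+- were again close. For Cd86, PS19 exceeded WT 5.99-fold (3.71 to 10.2), and PS19 Zbp1+- was 6.1-fold below PS19 (3.7 to 10.6).

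Cd84 and Cd48 lie in the SLAM gene cluster of chromosome 1. Cd84 (171839697 to 171890718, plus strand), a receptor that binds other Cd84 molecules, had FPKM values of 0.351, 2.51 and 0.242 from 38, 272 and 24 reads. PS19 exceeded WT 7.14-fold (5.07 to 10.3), and PS19 Zbp1+- was 10.4-fold below PS19 (6.83 to 16.5). Cd48 (171682009 to 171705258, plus strand), a lipid-anchored ligand of Cd244a and Cd2, had FPKM values of 0.39, 3.94 and 0.85 from 8, 81 and 16 reads. Its 8 reads in WT left the widest interval of the 7 genes, 4.89 to 24.2 around a ratio of 10.1. PS19 Zbp1+- was 4.63-fold below PS19 (2.69 to 8.49) for Cd48.

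Cd52 (minus strand of chromosome 4, 134082448 to 134095082) was next to Lag3 in level in PS19, with FPKM values of 0.781, 8.72 and 0.745 from 16, 179 and 14 reads. It had the highest ratio of PS19 to WT among the 7 genes, 11.2 (6.69 to 20), and PS19 Zbp1+- was 11.7-fold below PS19 (6.8 to 21.8). The PS19 to WT intervals of Cd52, Lag3 and Cd48 overlapped, so their order is not resolved by counting. Cd52 overlaps Crybg2 on the opposite strand, and 172 of its 1187 exon bases, 14.5%, are also Crybg2 exon. Whether the authors counted by strand is not given in the sources used here, and Crybg2 had 20, 15 and 7 reads.

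**Figure D2:**
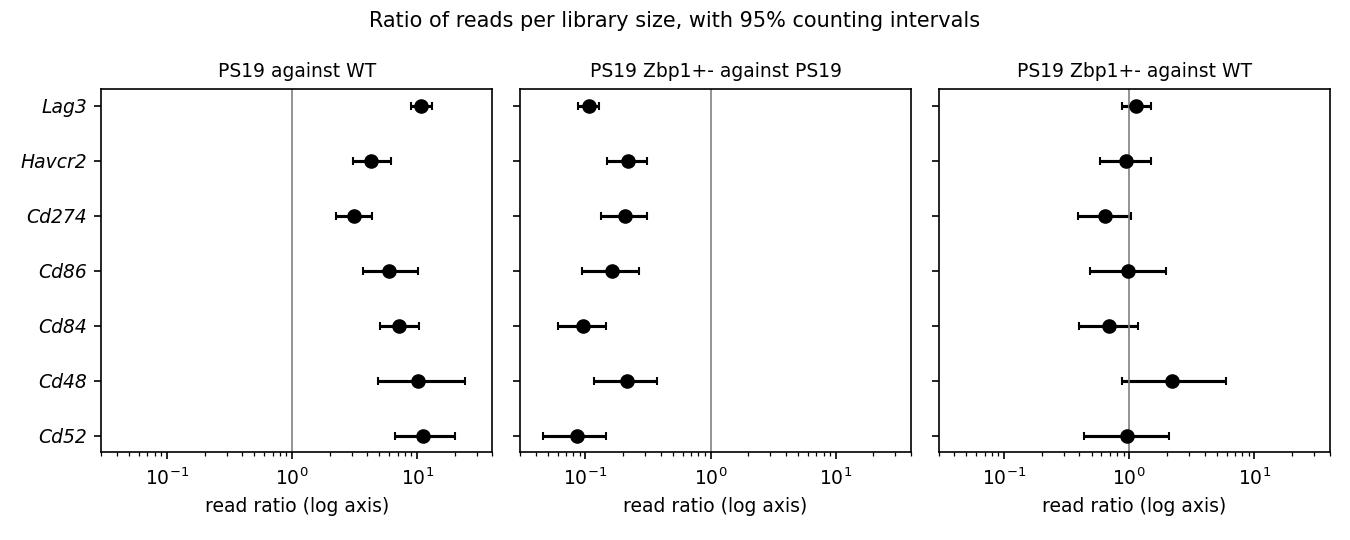
Ratio of reads per library size (log axis) for each gene in the 3 comparisons, with exact 95% intervals covering counting error. All 7 intervals lie above 1 for PS19 against WT and below 1 for PS19 Zbp1+- against PS19, and all 7 include 1 for PS19 Zbp1+- against WT.

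Across genes, differences were taken on the log2(FPKM + 1) scale, which understates the change of weak genes, and the threshold was 1 log2 unit in either direction. Protein-coding genes entered where one of the compared libraries reached an FPKM of 1. Between PS19 and WT, 6 of the 7 genes were higher by this threshold, and 2.20% of the 12703 genes tested were. Because 6 of the 7 reached an FPKM of 1 in PS19 and in neither other library, they entered through the library in which they are high, and nothing is read from the count. The differences were 3.07 for Lag3, 2.45 for Cd52, 1.83 for Cd48, 1.38 for Cd84, 1.36 for Havcr2, 1.14 for Cd86 and 0.95 for Cd274. Cd274 thus stayed just under the threshold and Cd86 just over it. The median of the 7 was 1.38, against -0.03 for all genes tested. As TPM the median of all genes tested moved to 0.11. Lag3 ranked 4, Cd52 ranked 13 and Cd274 ranked 308 among the increases. The 7 genes were chosen with these values known, so nothing is read from their median or ranks.

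The second question is how the PS19 pattern differs when Zbp1 dosage is lowered. This comparison shares the PS19 library with the first, so a high PS19 value enters both. Between PS19 Zbp1+- and PS19, 7 of the 7 genes were lower by at least 1 log2 unit, and 5.16% of the 12772 genes tested were. Here too, 6 of the 7 reached an FPKM of 1 in PS19 alone, so nothing is read from this count. Lag3 was at -2.92, Cd52 at -2.48 and Cd84 at -1.50, followed by Cd48 at -1.42, Havcr2 at -1.41, Cd274 at -1.19 and Cd86 at -1.14. On this scale Lag3 and Cd52 had the largest of the 7 differences in both comparisons. By read ratio Cd84, 10.4-fold below PS19, stood past Lag3 at 9.47-fold, with overlapping intervals. The share of higher genes among all those past the threshold was 27.9% here, 14.6% when scaled by total reads and 10.4% as TPM, that is with each library rescaled to the same sum. The median of all genes tested was 0.04, -0.12 and -0.25 under these scalings, and each of the 7 genes stayed lower by more than 1 log2 unit under all of them.

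The comparison of PS19 Zbp1+- with WT leaves out the PS19 library. Lag3 alone among the 7 genes reached an FPKM of 1 in either of these libraries, and its difference was 0.14. Its read ratio was 1.14, with an interval of 0.871 to 1.49. Of the 12436 genes tested, 1.07% were higher and 2.28% lower by at least 1 log2 unit. Higher genes made up 32.0% of these, 17.3% when scaled by total reads and 18.5% as TPM, with medians of all genes tested at 0.01, -0.13 and -0.15. For the other 6 genes the ratio lay between 0.645 (Cd274, 0.393 to 1.04) and 2.18 (Cd48, 0.88 to 5.88), and no difference was detectable at this depth. The ratio was 0.689 for Cd84 (0.395 to 1.18), 0.938 for Havcr2 (0.588 to 1.49), 0.981 for Cd86 (0.489 to 1.95) and 0.954 for Cd52 (0.431 to 2.09). These intervals are wide and do not show that WT and PS19 Zbp1+- have equal levels.

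Markers of microglia moved with the 7 genes. The 22 microglial markers had a summed FPKM of 259, 939 and 267. On the log2(FPKM + 1) scale, 12 of the 22 were at least 2-fold higher in PS19 than in WT. Of all genes tested, 2.20% were higher by this threshold. In bulk tissue, more cells of a type and more RNA per cell cannot be told apart. As log2 ratios of reads, where fewer than 3 reads were taken as 3, the median of the 22 markers was 1.59 for PS19 against WT. Lag3 at 3.43, Cd48 at 3.34 and Cd52 at 3.48 lay above all 22 markers, and Cd84 at 2.84 and Cd86 at 2.58 above 21 of them. The highest marker, the microglial receptor Fcrls, had a read ratio of 7.45 (6.19 to 9.03), which overlapped the intervals of all 5 genes. Overlap alone does not settle an order, and the order of each gene against Fcrls was not tested. Havcr2 at 2.10 and Cd274 at 1.64 lay among the markers, above 14 and 13 of them.

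For PS19 Zbp1+- against PS19 the marker median was -1.23. Cd52 at -3.55 lay below all 22 markers, and Cd84 at -3.38 and Lag3 at -3.24 below 21. The order against the lowest marker, Ptprc (CD45), 10.5-fold below PS19 (7.46 to 15.2), is not resolved by counting for these 3 genes. Cd86 at -2.61 lay below 20 markers, Cd274 at -2.27 below 19, and Havcr2 at -2.19 and Cd48 at -2.21 below 18. The markers differed among themselves. P2ry12, a purine receptor of resting microglia, had 490, 444 and 349 reads, while Trem2, a lipid-sensing receptor, had 206, 1066 and 229.

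**Figure D3:**
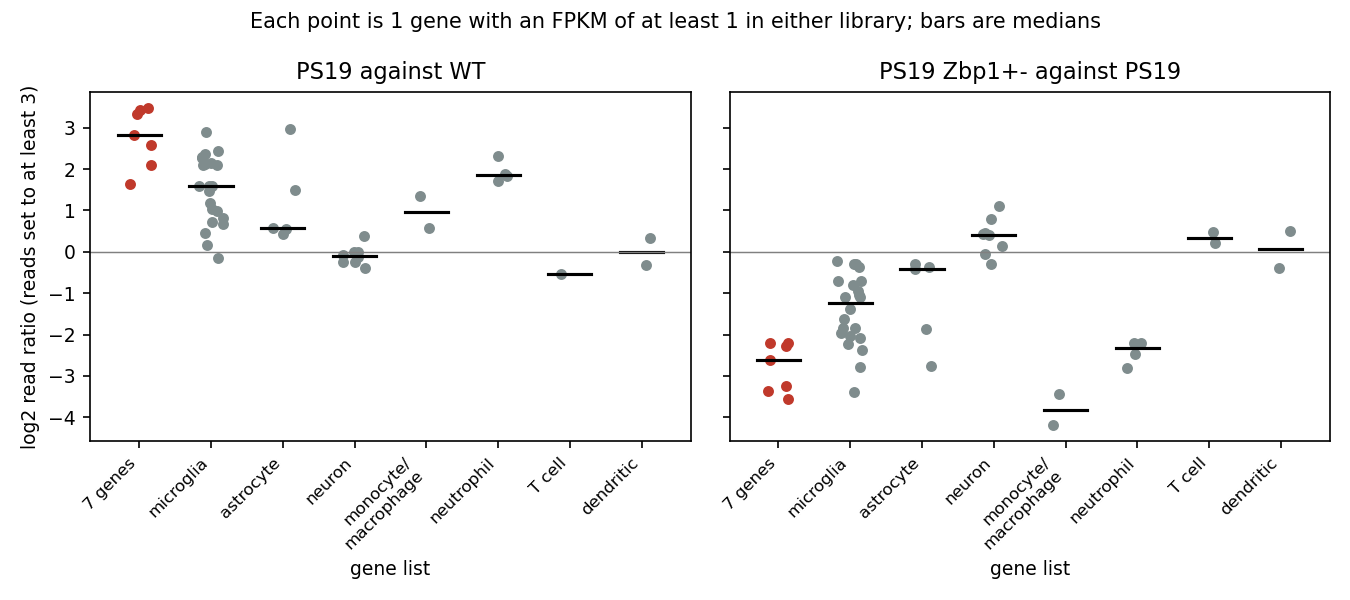
Log2 ratios of reads (fewer than 3 reads taken as 3) of the 7 genes in red and of cell type marker lists in grey, 1 point per gene past the FPKM limit of 1 and a bar at each median. The 7 genes have a median of 2.84 for PS19 against WT, against 1.59 for microglial markers and -0.10 for neuronal ones. The 7 genes were chosen with their values known, so the contrast of medians carries no test.

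Markers of other immune cells were weaker. The 14 T cell genes had a summed FPKM of 4.12, 5.46 and 5.4, with 141, 98 and 125 reads from Zap70. The defining T cell genes Cd3e (0, 4 and 0 reads) and Cd3d (0, 9 and 0) were at or near 0, Cd8a, the coreceptor of cytotoxic T cells, had 7, 18 and 0, and Cd5 had 0 in all 3 libraries. Other genes of the list were at their highest in PS19 Zbp1+-. Trac, a T cell receptor constant region, had 3, 12 and 20 reads, 7.27-fold above WT in PS19 Zbp1+- (2.16 to 38.2), and the kinase Lck had 25, 50 and 53. The 8 natural killer genes summed to 1.01, 1.18 and 0.196 with Ncr1 at 0 throughout, and the 5 B cell genes to 0.258, 0.349 and 0.754 with Ms4a1 at 0. For the 8 monocyte and border macrophage genes the sums were 2.45, 3.53 and 0.339, with Mrc1 at 80, 119 and 6 reads. The 6 neutrophil genes summed to 3.86, 14.9 and 2.52, with 160, 586 and 117 reads from Csf3r, which microglia also express. Of that list, 4 genes were tested in both comparisons with PS19. By 1 log2 unit, 2 were higher in PS19 than in WT, where 2.20% of all genes tested were. In PS19 Zbp1+- 4 were lower than in PS19, where 5.16% of all genes tested were. As 3 of the 4 passed the FPKM limit through PS19 alone, nothing is read from these counts. The calprotectin subunits S100a8 and S100a9 had 5, 18 and 0 and 7, 23 and 3 reads, Retnlg had 1, 15 and 1, and Ly6g and Cxcr2 were at 0. The 6 dendritic cell genes summed to 4.02, 3.85 and 3.32. Of the other brain cells, the 8 neuronal markers summed to 1170, 1060 and 1520, and the astrocyte gene Gfap had FPKM values of 98.4, 768 and 112. The part of any cell type in the levels of the 7 genes was not tested.

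The known partners of Lag3 had different patterns. Its MHC class II ligands were high in PS19 and nearly absent from PS19 Zbp1+-, with 63, 553 and 0 reads for H2-Aa, 43, 333 and 0 for H2-Ab1, and 74, 367 and 2 for H2-Eb1. PS19 exceeded WT 8.76-fold for H2-Aa (6.74 to 11.6), and PS19 Zbp1+- was at least 169-fold below PS19. Lag3 overlapped between WT and PS19 Zbp1+- within counting error, whereas in that comparison H2-Aa differed by -1.56 and H2-Eb1 by -2.06 log2 units on the log2(FPKM + 1) scale. Lgals3, a galectin reported to bind Lag3, had 37, 116 and 5 reads. The proteases that shed Lag3 from the cell surface differed less, with Adam10 at 1415, 1522 and 1115 reads and Adam17 at 329, 468 and 187. The soluble ligand Fgl1 had 3 reads or fewer in each library.

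Among the partners of Cd274, its receptor Pdcd1 had 1, 54 and 0 reads. PS19 exceeded WT 53.9-fold for Pdcd1, with an interval of 9.27 to 2170, and PS19 Zbp1+- was at least 16.5-fold below PS19. Pdcd1lg2, the other ligand of Pdcd1 and a neighbour of Cd274, had 0, 2 and 0 reads. Cmtm6, which protects Cd274 protein from degradation, had 614, 810 and 431 reads, and its relative Cmtm4 had 2609, 2139 and 3661.

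Lgals9, a galectin ligand of Havcr2, had 114, 243 and 76 reads. PS19 exceeded WT 2.13-fold for Lgals9 (1.7 to 2.68), and PS19 Zbp1+- was 2.93-fold below PS19 (2.25 to 3.84). Of the other Havcr2 partners, Ceacam1 had 45, 71 and 31 reads, Hmgb1 had 1060, 834 and 709, and Bag6, which binds the tail of Havcr2, had 3967, 4134 and 5438. Cd80, the B7 relative of Cd86, had 11, 29 and 10 reads, while their receptors Cd28 (3, 7 and 0) and Ctla4 (2, 3 and 0) were close to 0. Cd244a, the receptor of Cd48, had 0, 13 and 0 reads. The adaptors Sh2d1a and Sh2d1b1 and the lectin Siglecg, a receptor of soluble Cd52, had 3 reads or fewer in every library.

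**Figure D4:**
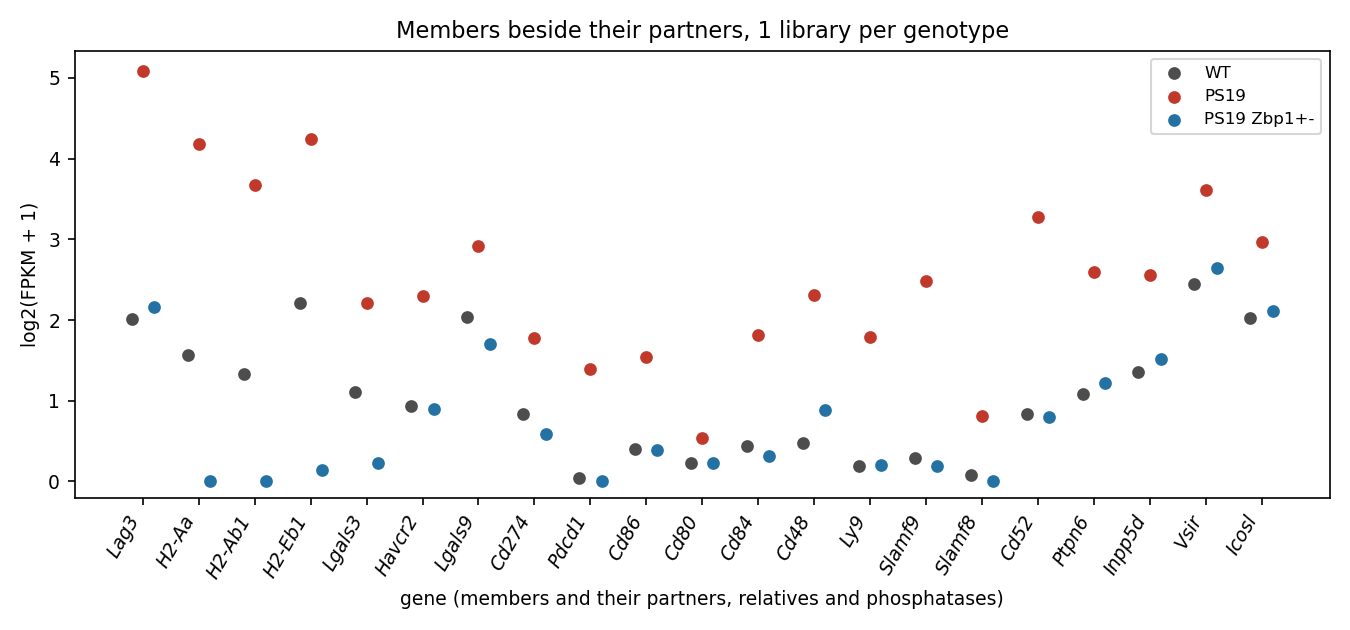
Levels as log2(FPKM + 1) of the 7 genes, their partners, SLAM relatives and inhibitory phosphatases, 1 point per library. The genes drawn were picked with their values known and leave out partners such as Hmgb1 and Cmtm4, which were not highest in PS19. PS19 is the highest of the 3 libraries for every gene drawn, and H2-Aa and H2-Ab1 lie at 0 in PS19 Zbp1+-.

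Of 9 SLAM family and adaptor genes beside Cd84 and Cd48, 2 passed the FPKM limit in the comparison of PS19 with WT. Both stood past 1 log2 unit, upward for PS19 against WT, where 2.20% of all genes tested did, and downward for PS19 Zbp1+- against PS19, where 5.16% did. They reached the limit in PS19 alone, the library in which they are high, so nothing is read from this count. Slamf9 had 5, 104 and 3 reads, with PS19 20.8-fold above WT (8.62 to 65.3), and Ly9 had 8, 140 and 8, with PS19 17.5-fold above WT (8.62 to 41.2). Slamf8, under the limit, had 3, 40 and 0 reads, Slamf7 had 4, 17 and 0, and Slamf6 had 3, 11 and 5. Slamf1, which lies between Cd48 and Cd84, had 1, 4 and 0.

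Of 31 further checkpoint and co-stimulatory genes, 11 were tested between PS19 and WT, and 2 of them were at least 2-fold higher and 0 lower. Of all genes tested, 2.20% were higher and 0.291% lower. The median difference of the 11 genes was 0.14, against -0.03 for all genes. The higher genes were Pdcd1 and Vsir, an inhibitory B7-like receptor of myeloid cells, which had 384, 967 and 416 reads, with PS19 2.51-fold above WT (2.23 to 2.84). Icosl, the ligand of Icos, followed at 0.95 log2 units with 244, 547 and 242 reads. Broadly expressed checkpoint genes differed less. Cd47 had 2392, 2407 and 2081 reads, its receptor Sirpa had 5945, 6175 and 6512, and Cd276 had 164, 180 and 168. Between PS19 Zbp1+- and PS19, 2 of 11 tested genes were lower and 0 higher. Of all genes tested, 5.16% were lower and 2.0% higher. The lower genes were Pdcd1 at -1.39 and Tnfrsf4, a co-stimulatory receptor of T cells, at -1.34, with 17, 36 and 0 reads. Pdcd1 and Tnfrsf4 reached an FPKM of 1 in PS19 alone, the library in which they are high. Nothing is read from the counts of higher and lower genes in this list.

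Phosphatases that act downstream of inhibitory receptors were Ptpn6 (SHP-1), with 54, 243 and 59 reads, Inpp5d (SHIP1), with 203, 645 and 224, and the broadly expressed Ptpn11, with 3345, 4526 and 2994. PS19 exceeded WT 4.49-fold for Ptpn6 (3.33 to 6.15) and 3.17-fold for Inpp5d (2.7 to 3.73). Interferon gamma signalling is a known inducer of Cd274. Of 7 genes of that pathway 6 were tested between PS19 and WT, with a median of 0.21 on the log2(FPKM + 1) scale. In either direction 0 passed 1 log2 unit, where 2.20% of all genes tested were higher and 0.291% lower. Nlrc5, the activator of MHC class I genes, was at 0.94 and the receptor subunit Ifngr1 at 0.88. In reads, which that scale understates for weak genes, Nlrc5 had 15, 163 and 14, with PS19 10.8-fold above WT (6.38 to 19.8), and for Ifngr1 PS19 was 2.03-fold above WT (1.73 to 2.4). Between PS19 Zbp1+- and PS19, 1 of 6 was lower on the log2(FPKM + 1) scale, Ifngr1 at -1.14, and Nlrc5 was at -0.93. Of all genes tested, 5.16% were lower. Nlrc5 reached an FPKM of 1 in PS19 alone. In reads, PS19 Zbp1+- was 10.7-fold below PS19 for Nlrc5 (6.17 to 19.9) and 2.54-fold for Ifngr1 (2.12 to 3.06). Irf1, a factor known to act on Cd274, had 163, 216 and 114 reads.

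The pattern of Lag3 over the 3 libraries was compared with that of 12874 other protein-coding genes by the Euclidean distance of centred log2(FPKM + 1) values. The nearest were Gfap, an astrocyte filament protein, at a distance of 0.12, and Itgax, a leukocyte integrin subunit, at 0.21. Ccl12, a chemokine, followed at 0.28, Serpina3n, a protease inhibitor of reactive astrocytes, at 0.30 and the complement gene C4b, which has a close paralog, at 0.35. Itgax had 14, 602 and 5 reads, Ccl12 had 1, 59 and 2, and Serpina3n had 776, 5585 and 874. Cd52 ranked 7 at a distance of 0.45, and the other 5 genes ranked between 71 (Cd48, 1.13) and 243 (Cd274, 1.59). Over 3 libraries such a likeness is a description only.

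Of 13 distinct protein-coding genes next to the 7 on the chromosome, 4 passed the FPKM limit. Their differences ranged from -0.57 to 0.22 between PS19 and WT and from -0.40 to 0.40 between PS19 Zbp1+- and PS19, and 0 of the 4 passed 2-fold. Ptms, which lies 1975 bases from Lag3 on the same strand, had 9584, 6463 and 7805 reads, lowest in PS19, where Lag3 was highest. Cd4, on the other side of Lag3 and related to it in structure, had 5, 10 and 17 reads. Plgrkt, separated from Cd274 by 64 bases and on the opposite strand, had 199, 242 and 153 reads. Med7 beside Havcr2 had 171, 162 and 153, and Ubxn11 beside Cd52 had 374, 298 and 277.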

How the data were processed

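Hippocampal RNA of 10-month-old mice was sequenced in 3 libraries, 1 per genotype (WT, PS19, PS19 Zbp1+-), from TRIzol extracts with an NEB Next Ultra kit per the labels' protocols. The submitters' processing notes name Trim Galore 0.6.5, STAR 2.5.3a, featureCounts 2.0.4 and the build mm39. Gene positions in the deposited table nonetheless equal those of GENCODE M21 (GRCm38) for 98.3% of 54409 genes and for all 7 genes reported, and are given as GRCm38. The authors deposited FPKM values. Every value above 0, multiplied by gene length, was a whole multiple of 1 step per library, within 0.01 read, which gave reads and an implied library size. The totals were 16746085 (WT), 16400328 (PS19) and 17109734 (PS19 Zbp1+-) reads. The implied library sizes were 17253479, 17287957 and 15826984 in the same order. They lay above the total for WT and PS19 and below it for PS19 Zbp1+-.

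Differences of log2(FPKM + 1) were called at 1 log2 unit over protein-coding genes that reached an FPKM of 1 in a compared library. No p-value was computed, as there is 1 library per genotype. Read ratios used implied library sizes and exact (Clopper-Pearson) 95% intervals, and levels used exact Poisson intervals. Both cover counting error only, since there is 1 library per genotype. Reads lack molecular identifiers, so copies of the same molecule could not be told apart, and the intervals may be too narrow. Against a library at 0 reads the ratio was taken at 3 reads and given as a bound. The genes and the 21 gene lists were chosen with earlier results of these data known. Some genes were later taken out of the lists and are not reported here, and counts cover the genes left. Genes were named by rule: the 7 genes, Zbp1, the 5 genes nearest to Lag3, chromosomal neighbours, partners with at least 10 reads, up to 3 genes of each pathway list and cell type markers. Partners below 10 reads, the further SLAM and checkpoint genes, Irf1, Xist and Ddx3y were named after their values were seen. The 11 alternatives covered the pseudocount, filter, scaling, threshold, read ratios and subtraction of the microglial median. The steps were tested on simulated data. Tools were Python 3.11.15 with scipy 1.17.1, numpy 2.4.6, matplotlib 3.10.9 and pandas 2.3.3.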

Additional observations from a re-analysis of the deposited data

How the results depend on the processing

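The number of the 7 genes at least 2-fold higher in PS19 than in WT was 6, and 6 or 7 with a pseudocount of 0.1 or 0.5, no filter, at least 50 reads, either other scaling, a 1.5-fold threshold or read ratios. It was 1 of 1 gene tested with a mean FPKM of at least 5, which left Lag3 alone, 2 with a 4-fold threshold and 2 after subtracting the median of the microglial markers, Lag3 and Cd52 in both cases. The number lower in PS19 Zbp1+- than in PS19 was 7 under those same settings, and 1, 2 and 2 under the last 3. The 4-fold and subtraction counts use log2(FPKM + 1), which understates the change of weak genes. By read ratio, Cd274 alone of the 7, at 3.12, lay under 4-fold between PS19 and WT. For PS19 Zbp1+- against PS19 the smallest decrease in reads was 4.58-fold (Havcr2). After that subtraction Cd86 turned from 1.14 to -0.05 and Cd274 from 0.95 to -0.24 between PS19 and WT. As log2 ratios of reads, Cd86 lay 0.99, Cd274 0.05 and Havcr2 0.51 above the marker median. Lag3 lay 1.84, Cd52 1.89, Cd48 1.75 and Cd84 1.25 above it. For PS19 Zbp1+- against PS19 the 7 genes differed from it by -0.97 (Havcr2) to -2.32 (Cd52). The cause of the turn in Cd86 and Cd274 was not tested. Between PS19 Zbp1+- and WT only Lag3 was tested in the main setting and in most alternatives, and it was not 2-fold lower. With at least 50 reads 4 of the 7 were tested, and with no filter or as TPM all 7. None of those tested was 2-fold lower, where 2.28% of all genes tested were in the main setting. A mean FPKM of at least 5 left no gene to test there. No paired analysis was possible because each genotype has 1 library. Depth limits the comparison of PS19 Zbp1+- with WT, since Cd48 rested on 8 and 16 reads there and Cd52 on 16 and 14.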

Other observations

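Some co-stimulatory genes outside the naming rule, chosen after their values were seen, had fewer reads in PS19 Zbp1+- than in both other libraries. Cd160, a receptor of lymphocytes that binds Tnfrsf14, had 13, 27 and 1 reads (WT, PS19, PS19 Zbp1+-). Tnfrsf14 had 17, 36 and 6 reads, Tnfrsf9 had 18, 18 and 0, and Tnfrsf4 had 17, 36 and 0. For Tnfrsf14 the ratio of PS19 Zbp1+- to WT was 0.385, with an interval of 0.124 to 1.02 that includes 1. Of the 7 genes of the report, those with 20 reads or fewer in WT were Cd86, Cd52 and Cd48, with 18, 14 and 16 reads in PS19 Zbp1+-. The loss of weak genes in that library is given in the report, and its part in these values was not tested.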
